A study of Arabidopsis thaliana with 12 samples.

Results

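Leaf transcripts of TPR1-GFP sid2-1 plants were set against those of TPR1-GFP eds1-2 plants, a comparison of a line that keeps EDS1 and carries a mutation in the isochorismate route to salicylic acid (SA) with a line mutated in EDS1. SA itself was not measured here. It took in 3 libraries of each line, 6 of the 12 of the study, and all 18884 genes of the deposited count table, of which 18877 passed the filter on low counts and were tested. Locus codes AT3G40000 to AT3G55000, the stretch around EDS1 on chromosome 3, held 838 of the tested genes and were counted apart from the other 18039.

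The TPR1-GFP sid2-1 line carries the pTPR1:TPR1-GFP transgene, a GFP-tagged TPR1 under its own promoter, together with sid2-1, a mutant allele of ICS1. The TPR1-GFP eds1-2 line carries the same transgene with eds1-2, a mutant allele of EDS1 that was isolated in the accession Landsberg erecta and brought into Col-0 by crossing. TPR1-GFP plants with neither mutation and wild-type Col-0 plants were sequenced with them and are given as context. All plants of Arabidopsis thaliana were untreated, were grown on soil with 10 h of light per day at 22 °C and 60% relative humidity, and gave leaves at 5 weeks of age. Both lines compared thus share the transgene, and the comparison holds no plant with a mutation alone. The labels name repeated experiments without tying a replicate number to one, so p-values reflect only how far these libraries scatter, which may be technical.

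EDS1 is a lipase-like protein that pairs with PAD4 or SAG101 and relays signals from immune receptors with a TIR domain, through helper receptors such as the ADR1 family. One output is SA, which is made in leaves under attack mainly from isochorismate. ICS1 makes isochorismate, EDS5 exports it from the chloroplast and PBS3 conjugates it to glutamate on the way to SA. SA acts through the NPR1 receptor on genes such as PR1. Other outputs of EDS1 run beside SA, among them N-hydroxypipecolic acid, which is made by ALD1 and FMO1, and cell death. TPR1, a TOPLESS-type corepressor, holds down transcription at the genes to which it is recruited.

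Library totals ran from 19628974 to 28345801 counts over the 6 libraries, and the first principal component of their log2 levels held 81.4% of the variance and separated the lines. The 10 most abundant genes took 9.64 to 10.2% of the counts in sid2-1 libraries and 11.3 to 12.3% in eds1-2 libraries. Replicate 2 of the eds1-2 line stood farthest from its partners, with a log2 correlation of 0.974 with replicate 1, where the other pairs of either line reached 0.981 to 0.990. Leaf identity was checked on 37 photosynthesis genes, all of which were counted, and their levels summed to 123239 to 134723 CPM (counts scaled to library size, as described with the processing) in sid2-1 libraries and 161476 to 173590 CPM in eds1-2 libraries. None of 3 shoot meristem markers was in the table. Of 6 root markers 3 were in it, with sums of 28.8 to 36.4 CPM in sid2-1 libraries and 22.2 to 25.6 CPM in eds1-2 libraries. In bulk leaves, fewer cells of a type and less RNA per cell cannot be told apart.

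The genes that define the lines were examined first. TPR1 stood at 776, 1305 and 1222 CPM in sid2-1 libraries, against 1048, 1327 and 990.2 CPM in eds1-2 libraries, and the ranges overlapped (log2 change −0.03 ± 0.17 SE, adjusted p = 0.92 in edgeR's quasi-likelihood test). TPR1-GFP plants averaged 1635 ± 105.2 CPM and Col-0 plants 72.0 ± 3.20 CPM (SD, n = 3 each), and the counts do not tell the transgene from the native gene. EDS1 (AT3G48090, chromosome 3, 17755329 to 17758147 in TAIR10.1) had 128, 135 and 156 CPM in sid2-1 libraries and 13.5, 16.0 and 15.7 CPM in eds1-2 libraries. The groups did not overlap, and the log2 change was 3.21 ± 0.25 SE (adjusted p = 5.6e-06). Its neighbour and close copy AT3G48080 had 5.68, 5.70 and 6.15 CPM against 3.56, 3.70 and 5.72 CPM, with overlapping groups (adjusted p = 0.44), and the pair can exchange reads. ICS1 (AT1G74710) had 132, 136 and 157 CPM in sid2-1 libraries, against 30.03, 25.9 and 23.3 CPM in eds1-2 libraries, and was 5.37-fold higher in sid2-1 (log2 change 2.43 ± 0.43 SE, adjusted p = 0.0014). A transcript count does not show whether the sid2-1 transcript gives an active enzyme. TPR1-GFP plants averaged 281 ± 81.1 CPM of ICS1 and Col-0 plants 28.9 ± 19.9 CPM (SD, n = 3 each).

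Outside the stretch, 3451 genes were called higher in the sid2-1 line than in the eds1-2 line (19.1% of the genes tested there) and 2685 were called lower (14.9%), at an adjusted p under 0.05. A change of at least 1 log2 unit was reached by 1475 of the genes called higher and by 764 of those called lower. Genes called higher made up 56.2% of these calls with TMM scaling, 42.6% with upper-quartile scaling and 69.8% with library totals alone, so the balance of directions depends on the scaling. The median log2 change over all genes tested outside was −0.00098. The number of genes called lower fell to 1691 without sid2-1 replicate 2, to 1768 without eds1-2 replicate 1 and to 1765 without eds1-2 replicate 3.

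**Figure D1:**
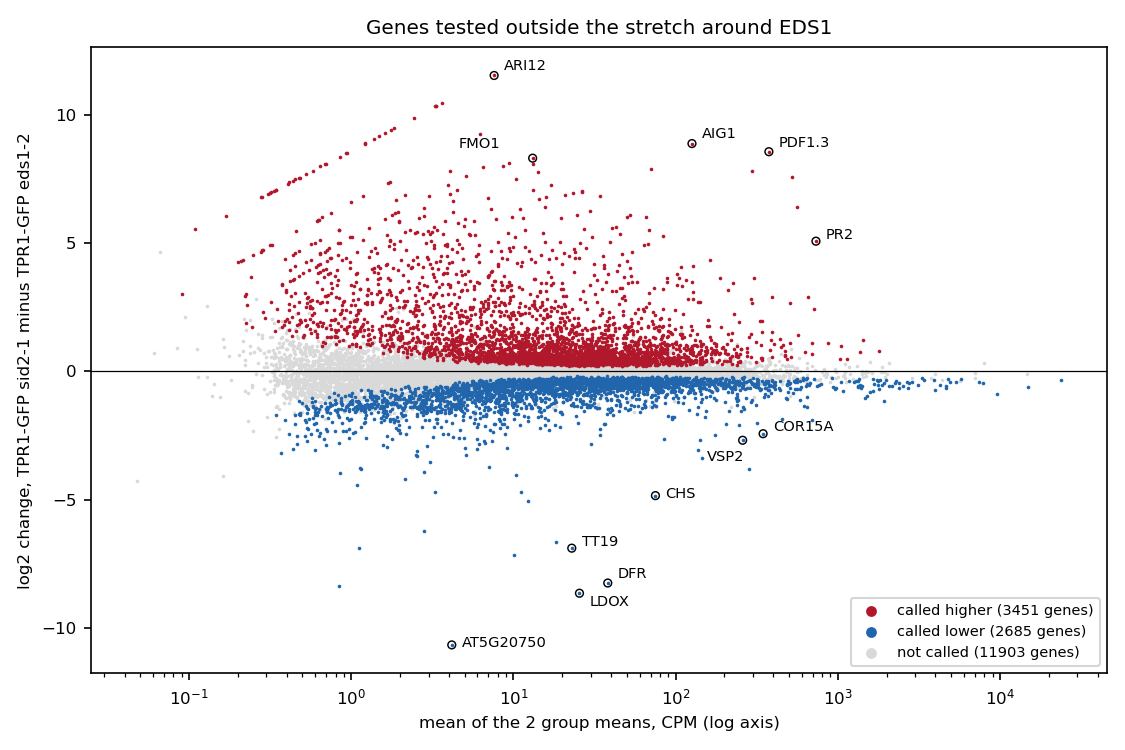
Each point is 1 of the 18039 genes tested outside the stretch around EDS1, with the mean of the 2 group means in CPM on a log axis and the log2 change (TPR1-GFP sid2-1 minus TPR1-GFP eds1-2) on the other. The 3451 genes called higher reach changes above 10 log2 units and lie mostly at low to middle levels, while anthocyanin genes such as DFR, LDOX and TT19 stand apart among the 2685 called lower.

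Several of the genes with the largest changes towards sid2-1 had no read, or hardly any, in the eds1-2 line. ARI12 (AT1G05880), a RING-type protein, had 12.2, 16.6 and 16.8 CPM in sid2-1 libraries and no count in any eds1-2 library, so it was at least 331-fold higher in sid2-1 against a floor of 3 counts over the group. AT4G11340, a receptor of the TIR-NBS-LRR class, had 6.03, 5.99 and 8.11 CPM against no count (at least 147-fold). CRK38 was at least 139.6-fold, AT1G53620 at least 158-fold and AT3G61390 at least 145-fold higher in sid2-1 by the same floor. These 5 genes averaged between 0.0135 and 0.930 CPM in Col-0 plants and between 2.34 and 10.3 CPM in TPR1-GFP plants.

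The defence-induced GTPase gene AIG1 (AT1G33960) was abundant, with 251, 229 and 275 CPM in sid2-1 libraries against 1.11, 0.267 and 0.238 CPM in eds1-2 libraries, a 468-fold difference (log2 change 8.87 ± 0.89 SE, adjusted p = 3.4e-05). The sid2-1 values lay at or above the 228 ± 69.8 CPM of TPR1-GFP plants and above the 7.57 ± 7.88 CPM of Col-0 plants. AT5G63225, annotated with a carbohydrate-binding X8 domain, had 12.1, 11.9 and 13.3 CPM in sid2-1 libraries against 1 read in the eds1-2 line, a ratio of counts of 804 (95% interval 144 to 31778). The berberine-bridge-type gene AT1G26390 had 15.7, 18.0 and 22.2 CPM against 0.0481, 0.134 and 0 CPM, and the cytochrome P450 gene CYP76C5 had 16.5, 16.4 and 18.8 CPM against 0.0481, 0.0891 and 0.0477 CPM. Floors and intervals cover counting error only.

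A contrasting pattern appeared in AACT1 (AT5G61160), annotated as an anthocyanin acyltransferase, which had 22.8, 27.2 and 29.04 CPM in sid2-1 libraries and 0.144, 0.0445 and 0.0953 CPM in eds1-2 libraries. AACT1 was not a member of the anthocyanin list described below. TPR1-GFP plants averaged only 0.0859 ± 0.149 CPM of AACT1 and Col-0 plants 0.834 ± 1.28 CPM, so the sid2-1 line stood above all 3 other genotypes. The defensin gene PDF1.3, described with the jasmonate genes below, was also highest in the sid2-1 line.

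Of the genes of SA synthesis and its activators, 5 of 7 rose, 1 fell and 1 did not pass the test (median log2 change 3.498). PBS3, which conjugates isochorismate to glutamate, had 144, 149 and 197 CPM in sid2-1 libraries against 18.7, 9.75 and 11.2 CPM in eds1-2 libraries (log2 change 3.63 ± 0.41 SE, adjusted p = 7.3e-05). EDS5, the isochorismate exporter, had 93.5, 96.8 and 121 CPM against 5.01, 2.72 and 4.81 CPM, and all sid2-1 values lay above the means of TPR1-GFP plants, which were 139.7 ± 44.7 CPM of PBS3 and 83.8 ± 24.5 CPM of EDS5. CBP60G and SARD1, transcription factors that bind the ICS1 promoter, rose 16.8-fold and 11.3-fold, with 199, 193 and 217 CPM of CBP60G and 96.4, 89.1 and 109 CPM of SARD1 in sid2-1 libraries, against 10.6, 14.7 and 10.9 CPM and 9.10, 7.04 and 9.96 CPM in eds1-2 libraries. SARD1 averaged 168 ± 51.3 CPM in TPR1-GFP plants, above every sid2-1 value. ICS2, the second isochorismate synthase gene, went the other way with 1.31, 1.65 and 2.23 CPM in sid2-1 and 11.6, 10.4 and 12.3 CPM in eds1-2 libraries (log2 change −2.70 ± 0.21 SE, adjusted p = 4.3e-06). EPS1, a pyruvoyl-glutamate lyase, had 3.82, 2.85 and 2.97 CPM against 2.98, 4.54 and 3.05 CPM with overlapping groups.

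SA-responsive genes split. Among 24 tested members, 10 were called higher in the sid2-1 line, 8 lower and 6 passed in neither direction, with a median log2 change of 0.14. PR2, a glucanase, had 1484, 1156 and 1631 CPM in sid2-1 libraries against 48.2, 59.9 and 18.8 CPM in eds1-2 libraries (log2 change 5.07 ± 0.84 SE, adjusted p = 9.5e-04). PR5, a thaumatin-like protein, had 1133, 985 and 1359 CPM against 145, 143 and 176 CPM, and the natriuretic-peptide-like gene PNP-A had 202, 165 and 200.1 CPM against 22.5, 8.20 and 10.5 CPM. All sid2-1 values of these 3 genes lay above all eds1-2 values. PR5 averaged 2743 ± 605 CPM and PNP-A 255 ± 73.3 CPM in TPR1-GFP plants, above every sid2-1 value of these genes. WRKY46 rose 12.8-fold and WRKY53 5.42-fold. Both encode transcription factors of the WRKY family, which bind the W-box.

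The opposite direction held for NIMIN1, an interactor of NPR1, with 0.754, 1.78 and 1.11 CPM in sid2-1 and 8.42, 3.47 and 9.82 CPM in eds1-2 libraries (log2 change −2.55 ± 0.61 SE, adjusted p = 0.0079). WRKY54 had 12.7, 13.3 and 15.6 CPM against 55.2, 55.0 and 63.7 CPM, and Col-0 plants averaged 21.3 ± 7.41 CPM. The TPR1-GFP means, 16.5 ± 6.56 CPM of NIMIN1 and 85.7 ± 24.7 CPM of WRKY54, lay above those of the eds1-2 line. WRKY38 had 1 read over the 3 sid2-1 libraries and 2.60, 0.757 and 3.29 CPM in eds1-2 libraries, and WRKY62 had 0.352, 0.289 and 0.371 CPM against 1.73, 1.65 and 1.43 CPM. NPR4, an SA receptor, had 29.2, 23.5 and 27.3 CPM against 37.0, 39.1 and 41.2 CPM, so these 5 genes were each lower in every sid2-1 library. LURP1 (93.1, 61.1 and 83.1 CPM against 242, 395 and 358 CPM, with 818 ± 251 CPM in TPR1-GFP plants), NIMIN2 and WRKY70 were also called lower. Each of these 3 calls was lost without sid2-1 replicate 1, without sid2-1 replicate 2 and without eds1-2 replicate 3, that of LURP1 also without sid2-1 replicate 3 or eds1-2 replicate 2, and that of NIMIN2 also without eds1-2 replicate 1 and in limma-voom. The number of SA-responsive genes called lower was 5 without sid2-1 replicate 1, without sid2-1 replicate 2 or without eds1-2 replicate 3.

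PR1, the classic marker of SA signalling, was not called. It had 1.46, 0.537 and 0.304 CPM in sid2-1 libraries and 4.62, 3.16 and 0.953 CPM in eds1-2 libraries, with overlapping groups (log2 change −2.02 ± 1.203 SE, adjusted p = 0.21). TPR1-GFP plants averaged 1739.8 ± 598 CPM and Col-0 plants 21.7 ± 24.7 CPM of PR1, so the means of both lines lay below those of these 2 genotypes.

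**Figure D2:**
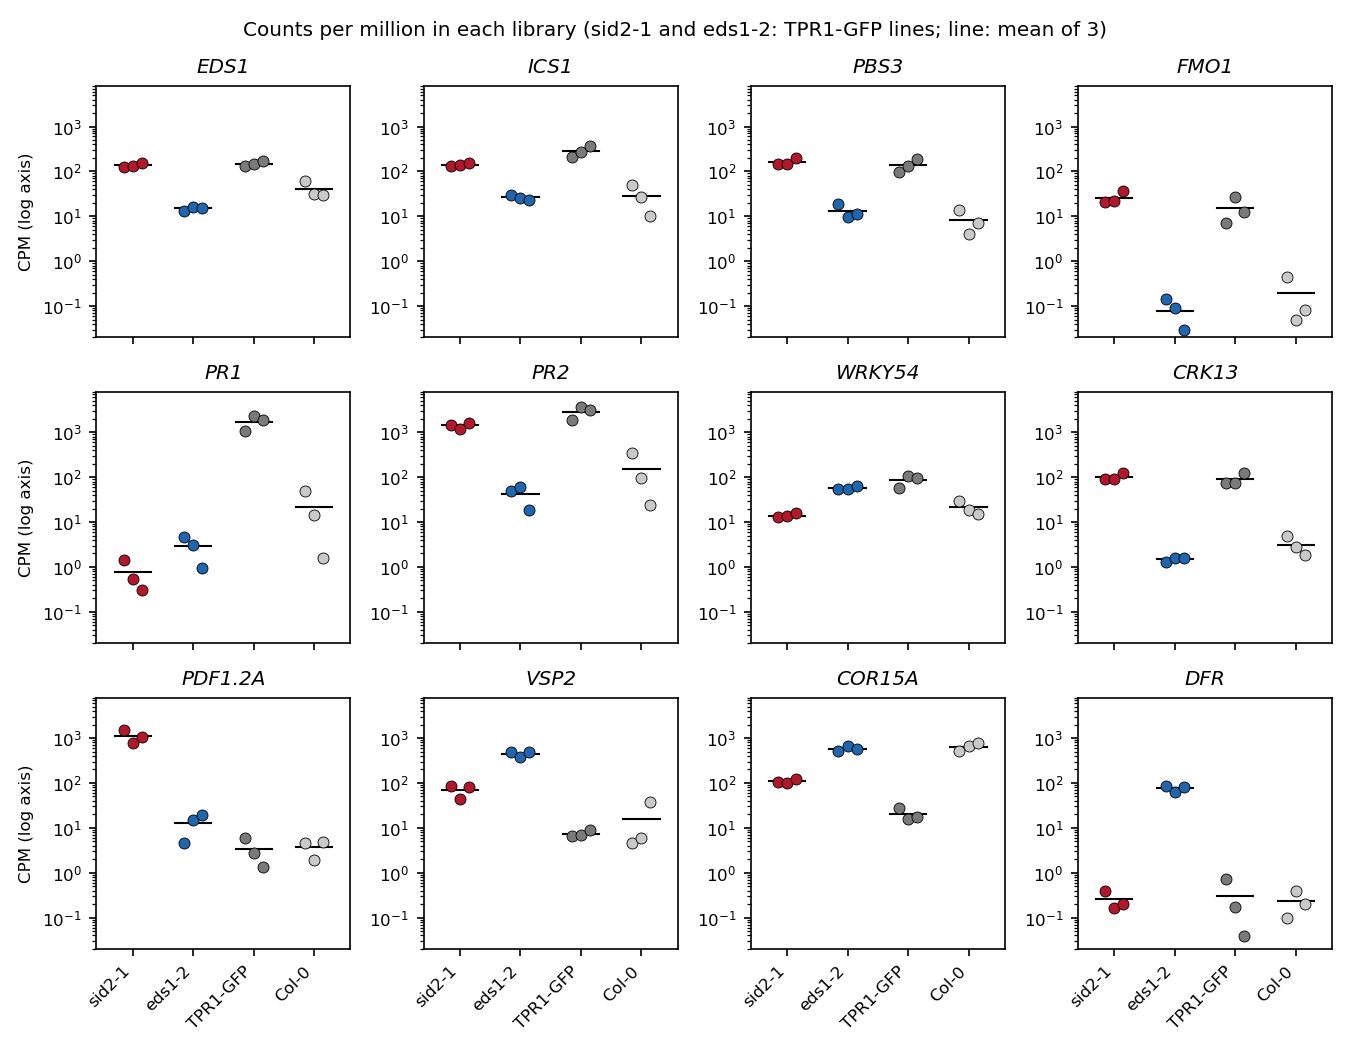
The 12 panels show the CPM of 1 gene each on a log axis in the 3 libraries of TPR1-GFP sid2-1, TPR1-GFP eds1-2, TPR1-GFP and Col-0, with the group mean as a line and values under 0.03 drawn at 0.03. PBS3, FMO1, PR2 and CRK13 are high in the sid2-1 line, PR1 is low in both lines, PDF1.2A is high in sid2-1 libraries and DFR in eds1-2 libraries.

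Of the 4 genes around N-hydroxypipecolic acid, 2 were called. FMO1 (AT1G19250), the N-hydroxylase, had 20.8, 21.4 and 36.3 CPM in sid2-1 libraries against 0.144, 0.0891 and 0 CPM in eds1-2 libraries, 337-fold higher in sid2-1 (log2 change 8.31 ± 0.80 SE, adjusted p = 2.5e-05). ALD1, the aminotransferase of the first step, had 8.39, 8.67 and 14.02 CPM against 0.481, 0.0891 and 0.191 CPM (log2 change 5.35 ± 1.13 SE, adjusted p = 0.0042). TPR1-GFP plants averaged 15.6 ± 10.2 CPM of FMO1 and 5.48 ± 2.35 CPM of ALD1, and Col-0 plants 0.194 ± 0.223 and 1.56 ± 2.55 CPM of these. The sid2-1 line was therefore at or above the TPR1-GFP level for both enzymes. UGT76B1, a glycosyltransferase acting on SA and N-hydroxypipecolic acid, had 0.502, 0.950 and 1.05 CPM against 0.529, 0.445 and 0.715 CPM with overlapping groups. AT5G52810 had 19.1, 19.4 and 27.1 CPM against 9.39, 11.98 and 14.4 CPM and missed the threshold (adjusted p = 0.1), which it passed when only the 6 libraries compared were fitted (0.0085).

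Partners and helpers of EDS1 outside the stretch were called higher in 6 of 7 cases (median log2 change 1.1997). SAG101, the partner that acts in cell death, had 52.9, 56.7 and 57.5 CPM in sid2-1 libraries and 19.0, 25.7 and 20.6 CPM in eds1-2 libraries (log2 change 1.36 ± 0.17 SE, adjusted p = 1.5e-04). The helper receptor ADR1 had 26.1, 24.3 and 27.1 CPM against 10.3, 13.7 and 9.63 CPM, ADR1-L1 had 186, 175 and 176 CPM against 74.1, 107 and 83.0 CPM and ADR1-L2 had 80.5, 81.7 and 82.8 CPM against 23.8, 32.2 and 26.9 CPM. None of these groups overlapped, and the eds1-2 line lay near the Col-0 means of 10.4, 84.6 and 33.9 CPM. AT5G66900, annotated as a CC-NBS-LRR protein, rose 1.57-fold, while its neighbour AT5G66910 had 21.9, 20.03 and 23.6 CPM against 20.3, 23.1 and 24.1 CPM and was not called. AT5G66890, another gene beside them, had 1.96, 1.73 and 1.86 CPM against no count in any eds1-2 library (at least 39.5-fold). PAD4, which lies inside the stretch, is given with it.

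Sensor receptors outside the stretch were higher in 8 of 16 cases and the other 8 were not called (median log2 change 0.34). AT1G17615, a TIR-NBS gene, had 2.76, 2.06 and 2.43 CPM in sid2-1 libraries against no count in eds1-2 and Col-0 libraries (at least 51.4-fold over eds1-2), and its neighbour CHS1, also a TIR-NBS gene, had 9.64, 10.8 and 11.0 CPM against 6.35, 5.48 and 6.20 CPM. WRR4, a TIR-type receptor for white rust, had 70.6, 78.5 and 74.2 CPM against 33.3, 42.6 and 34.4 CPM. AT1G17600 and CHS3 rose 1.83-fold and 1.37-fold, a small difference beside that of AT1G17615. The count of sensors called higher was 5 without sid2-1 replicate 2 or without eds1-2 replicate 1.

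The cysteine-rich receptor-like kinases (CRKs) are membrane kinases that pathogens and oxidants induce, with 21 of the 27 tested outside the stretch called higher and 6 not called (median log2 change 1.84). CRK13 had 91.4, 92.8 and 124 CPM in sid2-1 libraries against 1.2996, 1.56 and 1.62 CPM in eds1-2 libraries (log2 change 6.10 ± 0.35 SE, adjusted p = 8.7e-07). CRK37 had 53.3, 55.0 and 68.2 CPM against 0.915, 0.668 and 0.715 CPM, and CRK38 had 7.03, 6.73 and 6.01 CPM against no count. CRK39 had 12.1, 11.1 and 15.3 CPM against 3 reads, a ratio of counts of 279.8 (95% interval 95.5 to 1359). CRK40, another gene of this cluster on chromosome 4, rose 2.72-fold, with 133, 132 and 154 CPM against 57.0, 43.7 and 53.3 CPM. Near-identical copies in this cluster can exchange reads.

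The W-box, the site bound by WRKY factors, was searched as TTGACC or TTGACT in the 250 bases before the start of each gene, on both strands. It was found in 41.4% of the promoters of genes called at least 1 log2 unit higher outside the stretch, in 24% of those called at least 1 log2 unit lower and in 28.1% of all those tested there, and in 28.4% of all 27443 protein-coding genes. Of the 27 cysteine-rich kinase promoters 16 held it. The promoters of 3 neighbouring kinases are shown because they hold it and their genes had under 1 CPM in every eds1-2 library, with W-box letters in capitals (RefSeq annotation, TAIR10.1, 5′ to 3′ on the strand of the gene).
CRK37, chr4:2238120-2238369, plus strand: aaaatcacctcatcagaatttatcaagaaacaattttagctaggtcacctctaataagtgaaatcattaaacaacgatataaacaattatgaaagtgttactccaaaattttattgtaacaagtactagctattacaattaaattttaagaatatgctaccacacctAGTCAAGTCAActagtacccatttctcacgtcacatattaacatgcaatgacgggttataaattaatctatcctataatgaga
CRK38, chr4:2241822-2242071, plus strand: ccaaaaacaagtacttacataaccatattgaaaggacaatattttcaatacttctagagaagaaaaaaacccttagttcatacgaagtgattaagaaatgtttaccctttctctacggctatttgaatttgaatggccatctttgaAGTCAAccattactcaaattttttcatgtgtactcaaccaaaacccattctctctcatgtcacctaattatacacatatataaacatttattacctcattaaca
CRK39, chr4:2259248-2259497, plus strand: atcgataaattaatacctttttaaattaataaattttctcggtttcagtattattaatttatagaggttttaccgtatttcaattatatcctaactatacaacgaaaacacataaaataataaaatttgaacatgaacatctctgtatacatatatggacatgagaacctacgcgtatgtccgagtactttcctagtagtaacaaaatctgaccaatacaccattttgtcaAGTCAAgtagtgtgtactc
The match is 104 bases before the start in CRK38 and 19 bases before it in CRK39, while CRK37 holds a pair of matches, 83 and 78 bases before its start. A match is a run of letters and not a measured binding site. The letters TGAC are shared with the as-1 element TGACG, but no stretch of letters on 1 strand is both, because the next base differs. The as-1 element was found in 22% of promoters at least 1 log2 unit higher, 15.6% of those lower and 19.4% of all tested outside the stretch. Of the 27 cysteine-rich kinase promoters 11 held it, and that of CRK37 held 2 matches.

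Genes of pattern-triggered immunity, the layer that detects conserved microbial molecules, were called higher in 15 of 26 cases outside the stretch, and the other 11 were not called (median log2 change 0.61). BIK1, the receptor-associated kinase, had 37.4, 31.5 and 33.03 CPM in sid2-1 libraries and 9.24, 12.96 and 11.3 CPM in eds1-2 libraries, and the co-receptor kinase SOBIR1 had 364, 370.4 and 433 CPM against 95.1, 107 and 104 CPM. SOBIR1 averaged 667 ± 125 CPM in TPR1-GFP plants, above every sid2-1 value, and BIK1 29.8 ± 3.11 CPM, below each of them. WRKY33, a regulator of camalexin synthesis, had 109.9, 119 and 139 CPM against 22.4, 29.5 and 29.03 CPM (log2 change 2.18 ± 0.17 SE, adjusted p = 4.8e-06). BIR1, a kinase that restrains this pathway, rose 2.72-fold. The receptors for bacterial flagellin and elongation factor Tu had 29.2, 37.2 and 33.2 CPM against 39.2, 39.4 and 37.9 CPM of FLS2 and 17.5, 15.2 and 16.8 CPM against 11.6, 13.2 and 14.3 CPM of EFR, and neither was called, though EFR passed the test when only the 6 libraries compared were fitted (adjusted p = 0.045).

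Calcium channel, sensor and signalling genes were called higher in 11 of 17 cases outside the stretch (median log2 change 0.54). CNGC19, a cyclic-nucleotide-gated channel, had 27.3, 27.5 and 34.6 CPM in sid2-1 libraries against 0.770, 0.356 and 1.001 CPM in eds1-2 libraries (log2 change 5.40 ± 0.43 SE, adjusted p = 7.1e-06). The calmodulin-like genes CML37 and CML38 had 17.0, 15.4 and 21.7 CPM and 14.02, 11.73 and 14.99 CPM against 0.241, 0.579 and 0.429 CPM and 1.49, 1.11 and 1.95 CPM. These genes were 43.3-fold and 8.93-fold higher in sid2-1. Wall-associated and lectin kinases rose in 4 of 7 cases. WAK3 had 43.9, 46.1 and 67.5 CPM against 0.481, 0.312 and 0.429 CPM, a 129-fold difference, whereas its relatives WAK1 (150, 156 and 216 CPM against 125, 175 and 175 CPM) and WAK2 (136, 146 and 155 CPM against 157, 148 and 164 CPM) overlapped between the lines. LECRK-VI.2, a lectin kinase of bacterial immunity, had 32.8, 27.003 and 37.1 CPM against 3.08, 3.21 and 2.67 CPM, and WAKL10 rose 40.3-fold.

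Penetration resistance genes and MLO genes, counted together, rose in 5 of 7 cases, so this is not a count of resistance genes alone. The transporter PEN3 rose 1.68-fold and the syntaxin PEN1 2.02-fold, and MLO6 and MLO12 rose 2.77-fold and 3.70-fold. Cell death regulators rose in 8 of 13 cases (median log2 change 1.71). BAP1 and BAP2, membrane-associated inhibitors of cell death, had 7.89, 8.67 and 9.32 CPM and 9.80, 8.92 and 11.0 CPM in sid2-1 libraries, against 0.433, 0.178 and 0.429 CPM and 0.0963, 0.223 and 0.143 CPM in eds1-2 libraries. BON3, a copine of the BONZAI family, had 5.98, 5.12 and 7.46 CPM against 0, 0.134 and 0.286 CPM. NUDT7, a hydrolase that limits EDS1 signalling, had 223, 216 and 244 CPM against 25.99, 26.9 and 27.6 CPM (log2 change 3.08 ± 0.24 SE, adjusted p = 5.0e-06). BAP1, BAP2 and NUDT7 are thus known as brakes rather than as drivers of cell death. ACD6, an ankyrin-repeat protein tied to SA, was called lower with 367, 351 and 399 CPM against 572, 915 and 908 CPM. That call was lost without sid2-1 replicate 1 or 2 and without eds1-2 replicate 2 or 3, with adjusted p up to 0.071.

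Camalexin and indole glucosinolates are defence compounds made from tryptophan. Of 15 camalexin and indole glucosinolate genes 11 rose, 1 fell and 3 were not called (median log2 change 2.68). CYP71A12, which acts on indole-3-acetaldoxime, had 68.3, 57.5 and 77.0 CPM in sid2-1 libraries against 0.385, 0.846 and 0.524 CPM in eds1-2 libraries (log2 change 6.83 ± 0.35 SE, adjusted p = 2.9e-07), and it can exchange reads with its close copy CYP71A13. MYB51, a regulator of indole glucosinolates, had 63.0, 62.1 and 65.4 CPM against 6.93, 7.57 and 6.15 CPM, CYP81F2 had 30.8, 27.6 and 33.7 CPM against 1.54, 1.92 and 2.81 CPM and the methyltransferase IGMT1 had 26.9, 25.9 and 20.6 CPM against 0.770, 1.78 and 0.906 CPM. AT1G26380, of the berberine bridge family, averaged 19.1 ± 2.13 CPM against 0.654 ± 0.0297 CPM (SD, n = 3 each). For MYB51, CYP81F2 and IGMT1 the sid2-1 values exceeded the TPR1-GFP means of 43.0, 18.1 and 7.95 CPM. MYB34, another regulator of indole glucosinolates, was the member called lower, with 8.84, 5.99 and 6.01 CPM against 14.1, 23.96 and 18.0 CPM.

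Aliphatic glucosinolates are made from methionine. Of 14 genes of this branch 10 were called lower and 1 higher (median log2 change −1.09). BAT5, a chloroplast transporter of the pathway, had 21.7, 23.2 and 16.1 CPM in sid2-1 libraries and 53.3, 59.2 and 57.6 CPM in eds1-2 libraries, FMOGS-OX1 had 8.14, 8.75 and 5.27 CPM against 18.7, 26.5 and 18.6 CPM, and the sulfotransferase SOT18 had 43.6, 37.0 and 33.2 CPM against 71.9, 76.8 and 68.8 CPM. MAM3, a chain-elongation enzyme, was the exception with 2.31, 3.26 and 3.92 CPM against 0, 0.0891 and 0.0477 CPM. In Col-0 plants MAM3 averaged 0.709 ± 0.572 CPM. The number called lower was 6 without sid2-1 replicate 1 and 5 without sid2-1 replicate 3.

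Genes of protein folding in the endoplasmic reticulum, which serve secretion of defence proteins, rose in 16 of 19 cases (median log2 change 0.85). BZIP60, the transcription factor of the unfolded protein response, had 60.3, 53.2 and 58.0 CPM in sid2-1 libraries against 20.5, 26.99 and 23.6 CPM in eds1-2 libraries (log2 change 1.27 ± 0.16 SE, adjusted p = 1.3e-04). CRT3, a calreticulin, had 292, 270.2 and 320.2 CPM against 80.2, 96.6 and 90.9 CPM, and SDF2 had 66.5, 65.2 and 77.7 CPM against 39.3, 38.8 and 38.5 CPM. CRT3 averaged 653 ± 124 CPM and SDF2 114 ± 19.7 CPM in TPR1-GFP plants, above every sid2-1 value of these genes. The stress sensor IRE1A rose 1.59-fold, and the ranges of these 4 genes did not overlap. Genes of the heat shock response, which comprise chaperones and the transcription factors HSFA2 and DREB2A, rose in 5 of 7 cases outside the stretch, both factors among them. The chaperone gene HSP90.1 had 23.8, 25.6 and 28.2 CPM against 3.27, 4.63 and 3.91 CPM, while the small heat shock gene HSP18.2 was called lower (0.251, 0.248 and 0.371 CPM against 1.2996, 1.47 and 1.67 CPM). The count of heat shock genes called higher was 3 without sid2-1 replicate 1 or 3 and without eds1-2 replicate 1 or 2, with HSFA2 and AT1G07400, a small heat shock gene, losing their calls each time.

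All 9 senescence genes tested outside the stretch were called higher (median log2 change 3.31). SAG21 had 210.4, 180.4 and 202 CPM in sid2-1 libraries against 17.1, 20.5 and 22.3 CPM in eds1-2 libraries (log2 change 3.31 ± 0.20 SE, adjusted p = 9.3e-07). SAG13, a short-chain dehydrogenase, had 93.4, 66.9 and 92.2 CPM against 6.93, 3.83 and 3.72 CPM, and ORE1, a NAC factor that promotes leaf senescence, had 7.23, 7.597 and 5.88 CPM against 0.0963, 0.802 and 0.572 CPM. SAG13 averaged 200 ± 63.3 CPM in TPR1-GFP plants, above every sid2-1 value. SEN1, a dark-induced gene, had 101, 136 and 59.6 CPM against 4.09, 9.09 and 5.15 CPM, while TPR1-GFP plants averaged 6.26 ± 1.201 CPM. The chlorophyll-breakdown genes NYE1 and NYC1 rose 2.44-fold and 1.70-fold. NAP, a further NAC factor, rose 2.66-fold and lost its call without eds1-2 replicate 1 (adjusted p = 0.07). Genes of oxidative stress, mostly glutathione transferases and also alternative oxidases and a peroxidase, rose in 6 of 10 cases. GSTF7 had 334, 324 and 386 CPM against 25.8, 28.2 and 30.1 CPM and the peroxidase PRX71 had 61.8, 54.4 and 61.7 CPM against 1.97, 5.26 and 2.62 CPM, whereas GSTU1 was called lower at 1.26, 0.661 and 1.01 CPM against 2.31, 1.92 and 2.24 CPM.

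Jasmonate responses are read through an ethylene-linked branch, driven by ORA59 and ERF1 with defensins as outputs, and a MYC branch with VSP1 and VSP2 as outputs. In the ethylene-linked branch all 12 tested genes were called higher in the sid2-1 line (median log2 change 3.68). PDF1.2A had 1479, 760.1 and 1066 CPM in sid2-1 libraries against 4.67, 14.9 and 19.5 CPM in eds1-2 libraries (log2 change 6.40 ± 0.64 SE, adjusted p = 3.4e-05). PDF1.3 had 1033, 516 and 699 CPM against 1.54, 1.38 and 3.05 CPM, a 376-fold difference. PDF1.2C had 765, 417 and 583 CPM against 0.674, 3.74 and 3.53 CPM, and PDF1.2B had 184, 103 and 136 CPM against 0.144, 1.02 and 0.572 CPM. These defensins are near-identical and can exchange reads. TPR1-GFP plants averaged 3.37 ± 2.36 CPM and Col-0 plants 3.74 ± 1.60 CPM of PDF1.2A, so its sid2-1 values lay above those of all 3 other genotypes. ERF104, an ethylene response factor, had 45.2, 45.9 and 42.0 CPM against 3.03, 3.07 and 2.96 CPM, but Col-0 plants averaged 27.6 ± 10.103 CPM. ORA59 rose 11.3-fold and ERF1 6.15-fold.

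The GCC-box GCCGCC, the site of such ethylene response factors, was found on either strand in 2.58% of the promoters of genes at least 1 log2 unit higher, in 1.18% of those at least 1 log2 unit lower and in 2.01% of all tested outside the stretch. Of the 12 promoters of the ethylene-linked branch 3 held it. The promoters of PDF1.2A and PDF1.2B are shown with that of AACT1, which was also highest in sid2-1 libraries, chosen because they hold it, with GCC-box letters in capitals.
PDF1.2A, chr5:17907639-17907888, minus strand: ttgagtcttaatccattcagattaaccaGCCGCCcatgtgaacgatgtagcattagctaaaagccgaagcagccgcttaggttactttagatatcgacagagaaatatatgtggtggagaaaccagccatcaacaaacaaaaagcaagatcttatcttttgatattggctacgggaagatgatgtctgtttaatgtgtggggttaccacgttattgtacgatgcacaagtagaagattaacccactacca
PDF1.2B, chr2:11088873-11089122, plus strand: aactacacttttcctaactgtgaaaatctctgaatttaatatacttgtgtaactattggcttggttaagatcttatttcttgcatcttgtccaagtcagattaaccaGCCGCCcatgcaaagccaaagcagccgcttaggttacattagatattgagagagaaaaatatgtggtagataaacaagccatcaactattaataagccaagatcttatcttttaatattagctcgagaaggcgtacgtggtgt
AACT1, chr5:24608355-24608604, plus strand: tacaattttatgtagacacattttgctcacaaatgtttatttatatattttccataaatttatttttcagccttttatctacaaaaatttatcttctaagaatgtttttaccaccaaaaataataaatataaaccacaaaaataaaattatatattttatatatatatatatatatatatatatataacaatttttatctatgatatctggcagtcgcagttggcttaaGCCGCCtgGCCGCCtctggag
The match lies 222 bases before the start of PDF1.2A and 143 bases before that of PDF1.2B, and AACT1 has a pair, 21 and 13 bases before its start.

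In the MYC branch and jasmonate synthesis 10 of 26 genes were called higher, 5 lower and 11 not called outside the stretch (median log2 change 0.51). The share called higher was 38.5%, against 19.1% of all genes tested there. The share called lower, 19.2%, was near the 14.9% of all genes. VSP2, a vegetative storage protein, had 83.9, 44.8 and 80.4 CPM in sid2-1 libraries against 496, 369 and 479 CPM in eds1-2 libraries (log2 change −2.68 ± 0.62 SE, adjusted p = 0.0065). VSP1 had 9.75, 3.67 and 9.02 CPM against 48.6, 32.2 and 78.1 CPM, and both were lower in every sid2-1 library. In Col-0 plants VSP2 averaged 15.8 ± 18.3 CPM and in TPR1-GFP plants 7.46 ± 1.42 CPM, so the eds1-2 line stood highest of the 4 genotypes. MYC2, the transcription factor of the branch, had 83.3, 72.7 and 77.9 CPM against 48.4, 107 and 82.8 CPM, and its groups overlapped. LOX4, a lipoxygenase, rose 3.77-fold, the cyclase AOC3 4.78-fold, the hormone-inactivating CYP94C1 5.25-fold and the acetyltransferase NATA1 11.2-fold. AOC4 and the conjugating enzyme JAR1 were called lower, at log2 changes of −0.72 ± 0.09 and −0.30 ± 0.07 (SE). AOS, which was called lower at a log2 change of −0.57 ± 0.17 SE, lost that call without sid2-1 replicate 2 or 3 and without eds1-2 replicate 2 or 3, with adjusted p up to 0.084. The count called lower was 8 without eds1-2 replicate 1.

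**Figure D3:**
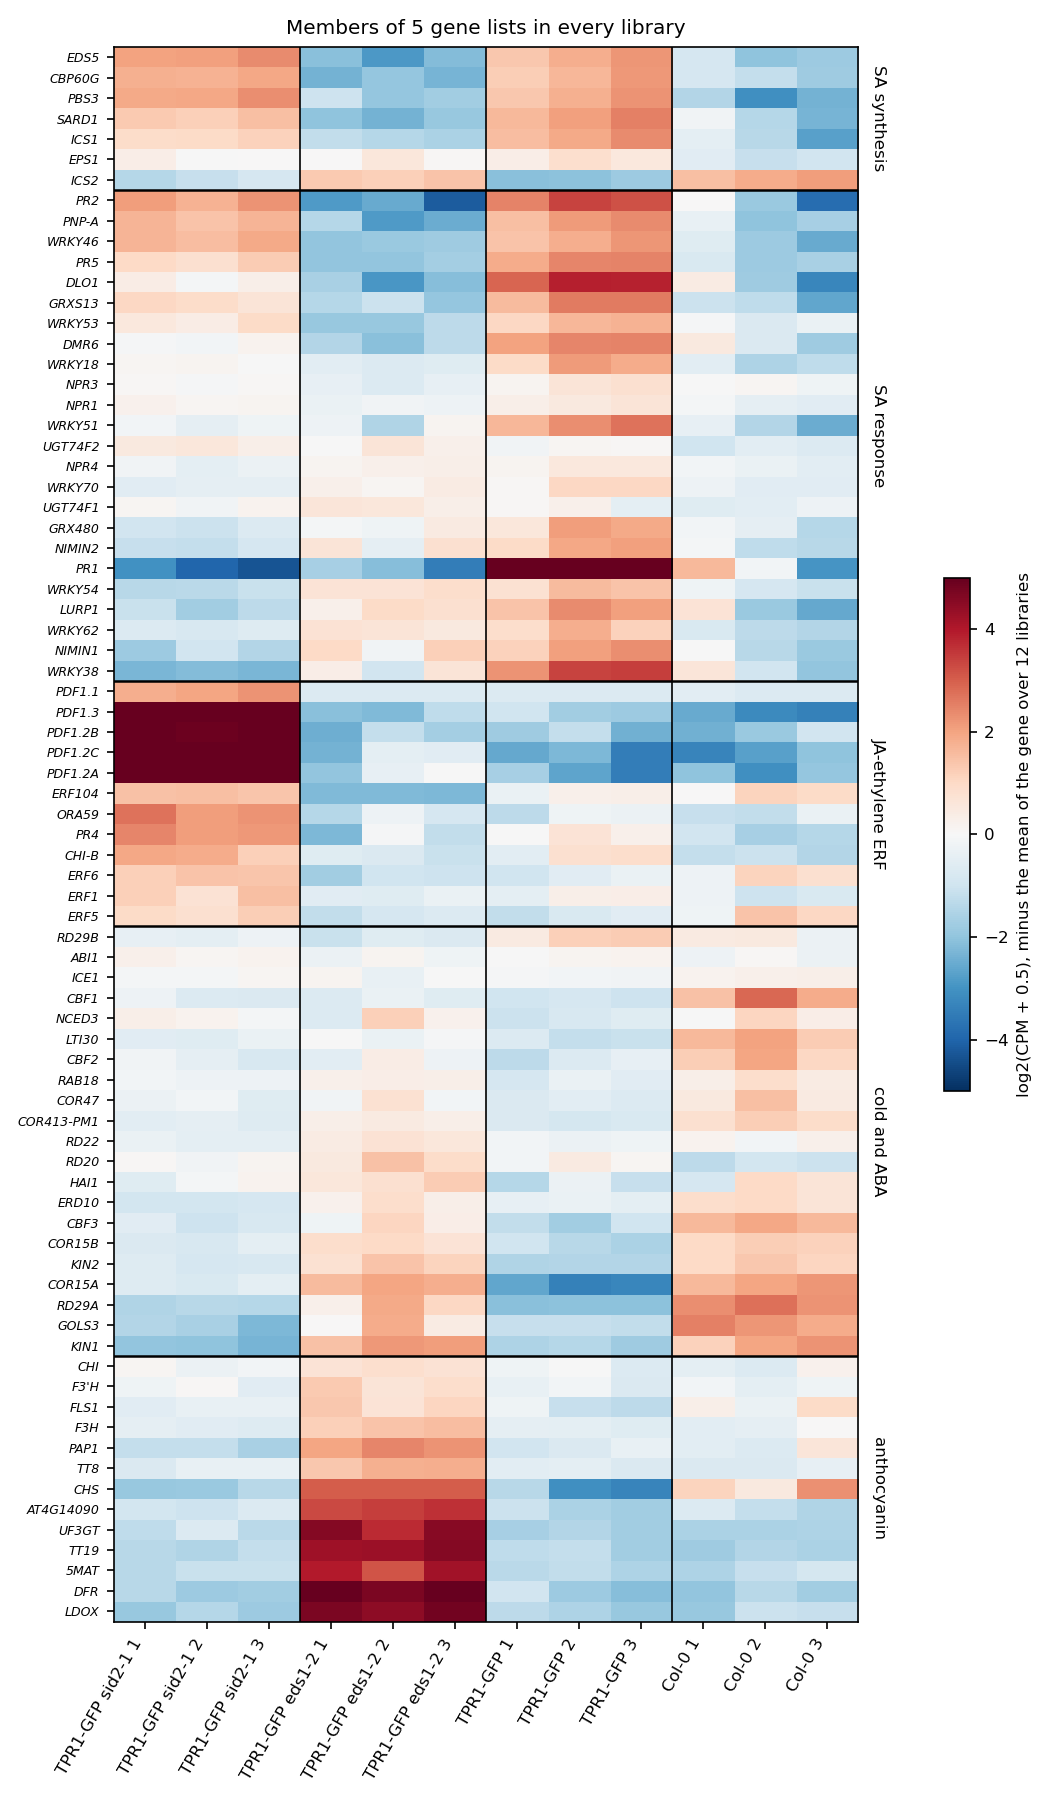
Rows are the 77 tested members of 5 gene lists, sorted within a list by their log2 change, and columns are the 12 libraries, and colour gives log2(CPM + 0.5) minus the mean of the gene over all libraries, with colours saturated at 5 log2 units. Defensins are red in the 3 sid2-1 libraries, anthocyanin genes in the 3 eds1-2 libraries and PR1 in the 3 TPR1-GFP libraries, and the rows LTI30 and F3H lie inside the stretch.

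Anthocyanin genes made up most of the largest changes towards eds1-2, and all 12 tested outside the stretch were called lower in the sid2-1 line (median log2 change −4.95). LDOX (AT4G22880), which makes the coloured anthocyanidin, had 0.0502, 0.248 and 0.0675 CPM in sid2-1 libraries and 52.2, 44.3 and 56.2 CPM in eds1-2 libraries, a level 418-fold higher in eds1-2 (log2 change −8.64 ± 0.42 SE, adjusted p = 2.1e-07). DFR, the enzyme before it, had 0.402, 0.165 and 0.203 CPM against 83.6, 61.5 and 83.1 CPM, and the transport protein TT19 had 0.352, 0.289 and 0.473 CPM against 41.0, 42.7 and 52.5 CPM. The glycosyltransferase UF3GT had 0.251, 0.619 and 0.203 CPM against 42.7, 23.6 and 41.6 CPM, and the malonyltransferase 5MAT had 0.0502, 0.165 and 0.169 CPM against 22.1, 12.2 and 25.8 CPM. Col-0 plants averaged 0.300 ± 0.218 CPM of LDOX, 0.233 ± 0.151 CPM of DFR and 0.230 ± 0.0748 CPM of TT19, and TPR1-GFP plants 0.188 ± 0.142, 0.310 ± 0.360 and 0.350 ± 0.165 CPM of these. All 9 libraries of the other genotypes held under 1 CPM of each of these 3 genes.

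The regulator PAP1, a MYB factor, had 1.36, 1.36 and 0.878 CPM in sid2-1 libraries against 16.0, 22.6 and 19.8 CPM in eds1-2 libraries, and CHS, the first enzyme of flavonoid synthesis, had 4.27, 4.46 and 6.32 CPM in sid2-1 libraries against 145 CPM in each eds1-2 library. CHS differs from the late genes in that Col-0 plants averaged 50.3 ± 33.2 CPM. The early gene CHI and the flavonol gene FLS1 differed less, at log2 changes of −0.90 ± 0.24 and −1.59 ± 0.36 (SE), and the call of CHI was lost without sid2-1 replicate 2 (adjusted p = 0.056). AT1G03940 and AT4G14090, annotated as an acyltransferase and a glycosyltransferase, had 0.151, 0.0413 and 0.0338 CPM and 0.653, 0.578 and 0.878 CPM against 5.92, 5.39 and 5.24 CPM and 21.2, 23.4 and 27.1 CPM.

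The G-box CACGTG was found in 6.58% of the promoters of genes at least 1 log2 unit higher, in 8.91% of those at least 1 log2 unit lower and in 7.23% of all tested outside the stretch, and in 3 of the 12 anthocyanin promoters. Those of CHS and UF3GT are shown with it in capitals, as examples from an early and a late gene of the pathway.
CHS, chr5:4488226-4488475, plus strand: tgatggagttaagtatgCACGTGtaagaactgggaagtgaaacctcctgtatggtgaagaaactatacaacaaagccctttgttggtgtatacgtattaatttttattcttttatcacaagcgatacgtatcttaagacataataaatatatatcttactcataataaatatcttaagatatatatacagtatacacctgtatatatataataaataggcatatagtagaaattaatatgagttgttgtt
UF3GT, chr5:21938397-21938646, minus strand: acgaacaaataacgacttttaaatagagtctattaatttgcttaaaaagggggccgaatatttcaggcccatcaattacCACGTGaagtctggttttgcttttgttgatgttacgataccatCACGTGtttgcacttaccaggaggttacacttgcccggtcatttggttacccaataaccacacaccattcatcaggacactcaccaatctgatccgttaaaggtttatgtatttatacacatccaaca
It lies 233 bases before the start of CHS, and 171 and 128 bases before that of UF3GT.

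Cold and abscisic acid genes were called lower in 12 of 20 cases outside the stretch (median log2 change −1.003). COR15A, a chloroplast cryoprotective protein, had 107, 98.4 and 120.2 CPM in sid2-1 libraries and 505, 662 and 584 CPM in eds1-2 libraries (log2 change −2.43 ± 0.22 SE, adjusted p = 1.2e-05). KIN1 had 0.954, 0.908 and 0.642 CPM against 15.2, 25.6 and 23.8 CPM, and KIN2, a close copy, had 316, 279.9 and 288 CPM against 845, 1333 and 1074 CPM. ERD10, a dehydrin, had 142, 142 and 149 CPM against 306, 489 and 325 CPM. Col-0 plants averaged 645 ± 129.9 CPM of COR15A, 20.4 ± 7.39 CPM of KIN1 and 479 ± 54.6 CPM of ERD10, and TPR1-GFP plants 19.9 ± 6.26, 1.43 ± 0.256 and 200.4 ± 11.9 CPM, so the eds1-2 line lay nearer to Col-0 than the sid2-1 line did for these 3 genes. The upstream factor CBF2 had 2.06, 1.65 and 1.148 CPM against 1.49, 3.25 and 1.91 CPM and was not called.

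The cold-response element CCGAC was found in 10.5% of the promoters of genes at least 1 log2 unit higher, in 11.9% of those at least 1 log2 unit lower and in 13.1% of all tested outside the stretch, and in 5 of the 20 promoters of the list. COR15A and RD29A hold more than one, in capitals below, and RD29A had 37.2, 39.3 and 38.6 CPM in sid2-1 libraries against 125, 393 and 217 CPM in eds1-2 libraries.
COR15A, chr2:17712331-17712580, minus strand: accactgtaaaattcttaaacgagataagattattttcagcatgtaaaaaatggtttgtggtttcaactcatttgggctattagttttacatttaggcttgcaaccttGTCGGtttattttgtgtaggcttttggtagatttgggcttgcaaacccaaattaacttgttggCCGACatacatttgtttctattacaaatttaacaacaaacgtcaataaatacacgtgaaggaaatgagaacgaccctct
RD29A, chr5:21240467-21240716, plus strand: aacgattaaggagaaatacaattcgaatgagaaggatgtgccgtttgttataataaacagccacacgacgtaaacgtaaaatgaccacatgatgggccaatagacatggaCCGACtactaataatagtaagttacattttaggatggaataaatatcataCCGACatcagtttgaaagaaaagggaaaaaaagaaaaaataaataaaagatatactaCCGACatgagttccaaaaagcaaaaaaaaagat
The matches are 142 and 79 bases before the start of COR15A, and 140, 90 and 33 bases before that of RD29A.

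Of 34 photosynthesis genes outside the stretch 25 were called lower and 9 were not called (median log2 change −0.40). LHCB6, an antenna protein of photosystem II, had 3967, 3442 and 3427 CPM in sid2-1 libraries and 5802, 5547 and 5597 CPM in eds1-2 libraries (log2 change −0.65 ± 0.10 SE, adjusted p = 4.0e-04). PSBP1, of the oxygen-evolving complex, was 1.49-fold and the plastocyanin gene PETE2 1.58-fold higher in eds1-2. As photosynthesis genes take a large share of all counts, their direction was checked under each scaling and stayed lower, with 22 to 27 genes called over all alternatives.

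Cell cycle genes were called lower in 7 of 18 cases (median log2 change −1.06). CYCB1;4, a mitotic cyclin, had 1.21, 1.49 and 2.195 CPM in sid2-1 libraries against 3.90, 3.43 and 4.099 CPM in eds1-2 libraries (log2 change −1.204 ± 0.28 SE, adjusted p = 0.0069), and CDKB2;1, a mitotic kinase, had 2.01, 2.60 and 4.32 CPM against 8.57, 5.97 and 6.24 CPM. Replicate 3 of the sid2-1 line was the highest of its group for both. This count rests on single libraries: it was 13 without sid2-1 replicate 3, and 2 without sid2-1 replicate 1 or 2 and without eds1-2 replicate 1 or 3, and DESeq2 called 12. Among 18 auxin and wall-loosening genes outside the stretch EXPA5, an expansin, was the only one called, with 25.3, 29.7 and 27.8 CPM against 71.2, 42.4 and 73.5 CPM. The median log2 change of the 18 genes was −0.05. Without eds1-2 replicate 2 EXPA5 was joined by 1 more. The member of this list inside the stretch, XTH31, was also called lower (adjusted p = 0.0018 in edgeR's quasi-likelihood test).

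Clock genes were called higher in 8 of 14 cases and lower in 1 (median log2 change 0.35), with 5 called higher without sid2-1 replicate 2, without eds1-2 replicate 1 or 3, and with RLE or upper-quartile scaling. FKF1, an evening-phased blue-light receptor, had 28.4, 26.1 and 27.8 CPM in sid2-1 libraries against 11.0, 16.1 and 10.6 CPM in eds1-2 libraries, PRR5 had 100.1, 99.2 and 96.0 CPM against 42.1, 58.6 and 44.3 CPM, and the morning gene RVE1 had 4.07, 3.92 and 3.11 CPM against 0.578, 1.56 and 1.14 CPM. CCA1 (29.6, 29.4 and 28.3 CPM against 30.4, 47.1 and 32.8 CPM) and GI (139.8, 158 and 149.9 CPM against 137, 166 and 138 CPM) were not called, but CCA1 was called lower without eds1-2 replicate 1 (adjusted p = 0.032) and with upper-quartile scaling. The labels give no hour of harvest, and its part in these values was not tested.

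Markers of other cell types were set beside the shares of all genes outside the stretch, 19.1% called higher and 14.9% called lower. Vascular genes were called lower in 4 of 9 cases (44.4%). That count was 2 without sid2-1 replicate 1 or eds1-2 replicate 1, 1 without sid2-1 replicate 2, and 8 when only the 6 libraries compared were fitted. The summed level of the 10 vascular markers was 375 to 429 CPM in sid2-1 libraries and 510 to 599 CPM in eds1-2 libraries. SUC2, the sucrose transporter of the phloem, had 235, 220.2 and 216 CPM against 353, 377 and 334 CPM. Of 8 epidermal markers tested 2 were called lower (25%, a share that rests on few members). Only 1 was called without any single sid2-1 library, and both calls were lost without eds1-2 replicate 1 or 3. Epidermal sums were 163 to 175 CPM in sid2-1 libraries and 163 to 250 CPM in eds1-2 libraries. Of 8 floral markers 3 were in the table, and SOC1 and FUL were called higher, calls that did not hold without sid2-1 replicate 1 or 3 or without eds1-2 replicate 1 or 3, nor with only the 6 libraries compared, nor that of FUL without eds1-2 replicate 2. AG, a floral organ gene, had 0.100, 0.165 and 0.169 CPM against 2.26, 2.18 and 2.00 CPM, and Col-0 plants averaged 0.632 ± 0.326 CPM. PYK10, a root glucosidase, was the 1 of 2 root markers called outside the stretch, with 8.79, 7.64 and 1.05 CPM against 0.0963, 0.178 and 0.0953 CPM, and it was not called in limma-voom. The part of these markers in the other results was not tested. Of the TOPLESS family, TPL rose 1.81-fold and TPR2 2.199-fold, and TPR4 was lower at 67.7, 85.8 and 84.9 CPM against 107, 105.02 and 107 CPM. Among 8 reference transcripts UBQ10 and ACT2 were called higher, by 1.73-fold and 1.49-fold, GAPC2 was called lower, and 5 passed in neither direction. These shares, 25% higher and 12.5% lower, lay near those of all genes.

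**Figure D4:**
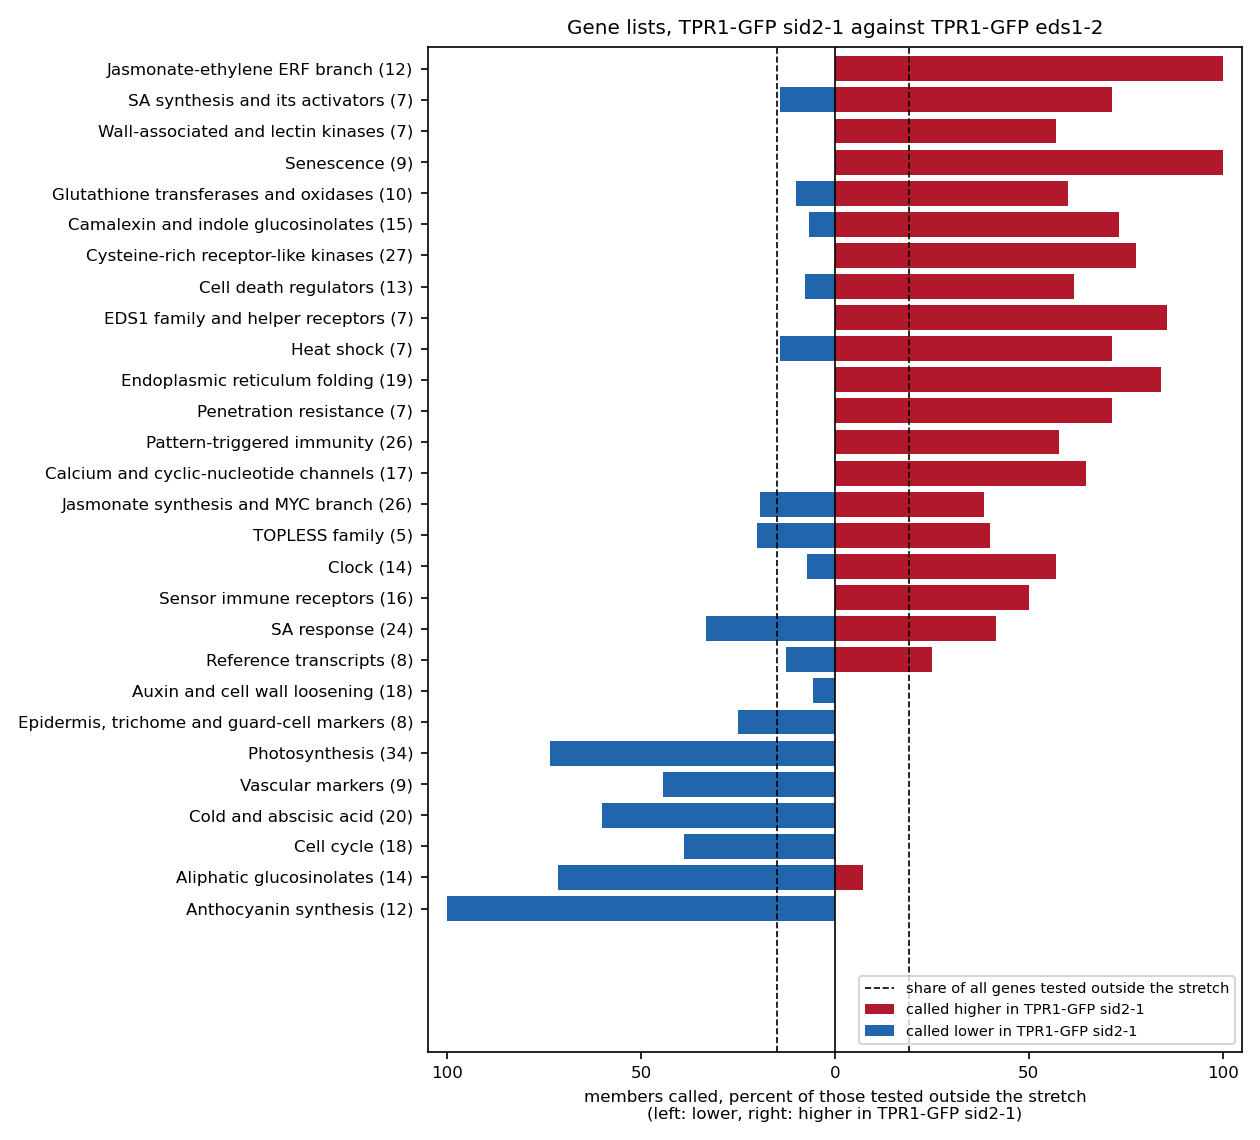
Bars give the percentage of the members of each of 28 gene lists with at least 5 genes tested outside the stretch (number in brackets) that were called higher (right) or lower (left) in TPR1-GFP sid2-1 than in TPR1-GFP eds1-2, sorted by median log2 change, and dashed lines give the shares over all genes, 19.1% and 14.9%. Ethylene-linked jasmonate and senescence lists reach 100% higher and the anthocyanin list 100% lower.

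Inside the stretch 236 of 838 genes were called higher (28.2%) and 128 lower (15.3%), and the median size of the log2 change was 0.40, against 0.30 outside. Because eds1-2 came from another accession, linked sequence differences and a response of expression cannot be told apart for these genes. In consecutive windows of 100 tested genes along chromosome 3, 58% were called from AT3G44220 to AT3G46020 and 55% from AT3G46030 to AT3G47580, while the windows that lie wholly outside the stretch had 25 to 42%. The window that holds EDS1, AT3G47590 to AT3G48770, had 34%, the next one, AT3G48780 to AT3G50140, 39%, and those from AT3G51480 to AT3G52710 and from AT3G52720 to AT3G53990 had 38% and 35%, so these 4 windows inside the stretch lay within the range outside it. The window from AT3G29160 to AT3G44205 had 46% and reaches across the lower limit of the stretch, and AT3G50170 to AT3G51470, on the other side of EDS1, had 48%.

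PAD4 (AT3G52430), the partner of EDS1, lies inside it and had 135, 133 and 148 CPM in sid2-1 libraries against 7.51, 8.20 and 7.48 CPM in eds1-2 libraries (log2 change 4.16 ± 0.42 SE, adjusted p = 3.5e-05), with Col-0 plants at 23.5 ± 16.0 CPM. Receptor genes RPP1 and RPP13, which recognise downy mildew, had 109, 121 and 117 CPM and 90.2, 77.4 and 82.1 CPM against 22.2, 23.9 and 22.0 CPM and 5.49, 9.71 and 6.96 CPM. In Col-0 plants they averaged 82.7 ± 18.9 and 48.8 ± 8.06 CPM, so the eds1-2 line was the lowest of the 4 genotypes for both. CRK4 had 98.7, 87.4 and 101 CPM against 0.241, 0.178 and 0.191 CPM, and CML41, a calmodulin-like gene, had 74.4, 61.4 and 72.0 CPM against 0.241, 1.02 and 0.238 CPM. For CRK4 Col-0 plants averaged 78.6 ± 73.5 CPM and for CML41 1.21 ± 0.849 CPM, so CRK4 was near absent from eds1-2 libraries and present in wild type, and CML41 was low in both. CRK4 averaged 341 ± 61.0 CPM in TPR1-GFP plants, above every sid2-1 value. MPK3, the defence MAP kinase, rose 2.35-fold.

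The largest changes inside the stretch were mostly all-or-none. HSD2 (AT3G47350), a steroid dehydrogenase gene, had 23.7, 22.3 and 20.3 CPM in sid2-1 libraries and 1 read in the eds1-2 line, with 21.8 ± 0.939 CPM in Col-0 plants, and AT3G46370, a leucine-rich repeat kinase gene, had 29.9, 25.9 and 29.1 CPM against 2 reads. AT3G46080, a zinc-finger gene, was at least 212-fold higher in sid2-1, AT3G47675 at least 171-fold, AT3G44740 at least 109-fold and the transposable element AT3G43690 at least 139.6-fold. In the other direction, AT3G44070, a glycosyl hydrolase gene, had 17.0, 16.5 and 16.6 CPM in eds1-2 libraries and no count in any of the 9 other libraries (at least 411-fold higher in eds1-2). FAR8 had 0.100, 0.206 and 0.0675 CPM against 4.19, 4.14 and 9.68 CPM, and the transposable element SADHU3-2 had 0.402, 0.206 and 0.101 CPM against 14.97, 12.7 and 14.7 CPM.

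Genes set apart in the eds1-2 line alone were counted by a rule chosen after their values had been seen. A mean in eds1-2 under a 20th of the lowest mean of the 3 other genotypes, all of these at 1 CPM or more, was found for 12 of 838 genes inside the stretch, from AT3G42806 to AT3G50480, and for 2 of 18039 outside. HR4 (AT3G50480), a homologue of a powdery mildew resistance gene, was 1 of the 12, with 312, 287 and 359 CPM in sid2-1 libraries, 0.337, 0.401 and 0.715 CPM in eds1-2 libraries, 344 ± 58.5 CPM in TPR1-GFP plants and 84.9 ± 61.5 CPM in Col-0 plants. The 2 outside were XTH18 on chromosome 4 and QQS (AT3G30720), an orphan gene of starch metabolism that lies on chromosome 3 below the lower limit. XTH18 had 1.46, 2.97 and 2.60 CPM in sid2-1 libraries against 1 read in the eds1-2 line. Its Col-0 libraries held 0.300, 4.42 and 0.485 CPM, so it met the rule in Col-0 through 1 library. QQS had 3.42, 2.48 and 4.39 CPM in sid2-1 libraries against 1 read in the eds1-2 line. The opposite, an eds1-2 mean over 20 times the highest other mean and at least 1 CPM, was found for 4 genes inside and 10 outside. Of these 10 AT5G20750, a transposable element on chromosome 5, had 9.48, 7.84 and 7.67 CPM in eds1-2 libraries and no count in the other 9, and AT3G31023, another, lies near QQS and had 1.64, 1.60 and 1.81 CPM. The other 8 were AT1G03940 and the anthocyanin genes LDOX, DFR, TT19, UF3GT, 5MAT, AT4G14090 and TT8.

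**Figure D5:**
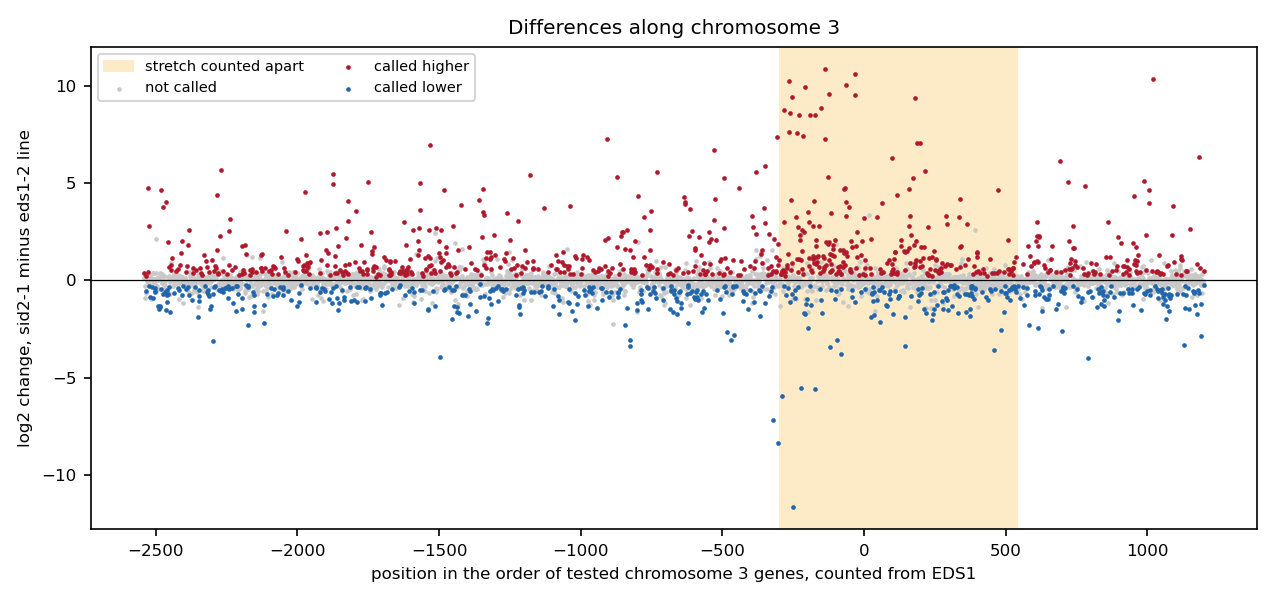
Points are the tested genes of chromosome 3 in the order of their locus codes, counted from EDS1 at 0, with the log2 change (TPR1-GFP sid2-1 minus TPR1-GFP eds1-2) on the other axis, and the stretch counted apart is shaded. Changes above 7 log2 units crowd on the lower side of EDS1 inside the shaded part, and 5MAT and AT3G31023 are low just before it.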

How the data were processed

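Polyadenylated RNA from leaves was sequenced in 12 libraries, 3 per genotype, and the groups follow the genotype labels. The authors deposited raw counts per gene and library, replicates kept apart. Per the submitters' processing notes TopHat2, HTSeq and limma were used on TAIR10, and versions and strand are not given in the sources used here, so overlapping and antisense genes are uncertain. The lowest gene sum over all libraries was 101, so rarer transcripts were not analysed here.

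The analysis used edgeR 4.0.16 under R 4.3.3. Genes passed filterByExpr, libraries were scaled by TMM, and a robust quasi-likelihood model with genotype as the only term was fitted to all 12 libraries. P-values for TPR1-GFP sid2-1 minus TPR1-GFP eds1-2 were adjusted by Benjamini and Hochberg over the 18877 genes, and genes under 0.05 were called. The standard error (SE) was obtained from the change and its F statistic, as |log2 change|/√F. CPM values use TMM-scaled totals, and folds are ratios of mean CPM. A group with no count was given a floor of 3 counts over its 3 libraries, and 1 to 3 counts a ratio with a 95% interval. The fit was tested on simulated data. It recovered 75% of 100 changes of 1 log2 unit and 98% of 100 changes of 2 log2 units, and called 11 of 18677 unchanged genes. Genes with few counts were given no change there, so recovery among them was not tested.

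The 32 gene lists (475 genes), the stretch and the members were chosen with earlier results of these data known. Named genes are those defining the lines, the 12 largest changes in each direction outside the stretch and 6 inside (groups not overlapping, mean of at least 5 CPM), members of lists with at most 10 tested genes, and in longer lists the 5 called with the smallest p and those against the majority; FLS2, EFR, PR1, PR2, CHS3, AT1G17600, MYC2, CBF2, RD29A, CHI, FLS1, CCA1, GI, ORA59, ERF1, HR4, QQS, XTH18, TT8 and AT3G31023 were added after their values were seen. Gene codes were matched to RefSeq (18777 found), promoters of 250 bases were read from TAIR10.1, and no coordinates were converted. Alternatives were other scalings, filters, DESeq2 1.42.0, limma-voom, fewer libraries, a replicate block and other limits of the stretch.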

Additional observations from a re-analysis of the deposited data

How the results depend on the processing

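Of 188 called genes named by the rule, 168 kept their call and direction under each of the 16 alternatives that tested them, 20 lost it under at least 1, and none reversed. Of the 13 called genes named after their values were seen, 12 kept it, CHI lost it and none reversed. Non-calls were less stable, as 14 of 33 genes named by the rule and not called, and 2 of 7 named later (EFR and CCA1), were called under at least 1 alternative. Counts of genes outside the stretch ranged, with 1 library left out, from 2513 to 3678 called higher and from 1691 to 2801 called lower. Inside it, limits of AT3G45000 to AT3G52000 gave 161 genes called higher and 67 lower, and limits of AT3G35000 to AT3G60000 gave 298 and 185. These counts move with the number of genes within the limits, so they do not measure stability. Pairing by replicate number was looked at through the log2 deviations of each library from the mean of its line. These correlated at −0.33, −0.08 and 0.16 between libraries of the same number, and at −0.33 to 0.38 between those of different numbers. The deviations within a line cancel out, so these values are tied to one another and do not settle whether the numbers pair the lines. Whether the lines shared experiments under other numbers was not tested, and a block on the numbers would not take these up. With the replicate block 3415 genes were called higher and 2585 lower outside, and 229 and 124 inside. A minimum mean of 5 CPM, which tests fewer members, left 5 SA-responsive and 2 cell cycle genes called lower, and 3 penetration and 2 heat shock genes called higher. DESeq2 called 3481 higher and 3196 lower outside the stretch. Differences in genes with few counts are limited by depth, and p-values by 3 libraries per line. The causes of these changes were not tested.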
